A study of Mus musculus with 9 samples.

Results

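Glucose enters the cell through facilitative transporters and is then carried through the upper reactions of glycolysis, and 10 genes of these steps were examined: the transporters Slc2a1 and Slc2a6, the hexokinases Hk1, Hk2 and Hk3, the glucose-6-phosphate isomerase Gpi1, the phosphofructokinase genes Pfkl and Pfkp, and the aldolases Aldoa and Aldoc. They were taken by symbol from a table of read counts with 12413 gene symbols. A row was found for 9 of the 10, and Gpi1 was not analysed here. All 9 were among the 10413 genes that passed the filter on low counts and entered the tests. RNA sequencing was performed on BV-2 cells, a virally immortalized mouse microglial line, in 3 groups of 3 libraries each. Control cells received PBS alone. Medium cells received 1 µg/mL lipopolysaccharide (LPS), the bacterial wall component that activates microglia through Toll-like receptor signalling. BHB cells received the same LPS together with 1.5 mM R-3-hydroxybutyric acid (BHB), the main circulating ketone body. The concentrations were taken from the methods of the study, and the sources used here do not state how long the sequenced cells were treated. Every comparison therefore concerns a single transformed line, and the response to BHB was observed only in the presence of LPS. The study describes its replicates in general as independent biological ones but does not describe the cultures behind these libraries, so that p-values measure the spread between libraries, part of which may be technical.

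Library totals ranged from 23411672 to 32767278 counts, with a median of 27905139. The 10 most abundant genes took 8.82% to 9.03% of the counts in Control, 13.2% to 14.9% in Medium and 10.3% to 10.9% in BHB. Medium replicate 3 stood apart from the other Medium libraries: a chi-square comparison of counts over genes gave 32.5 and 28.7 per degree of freedom against Medium replicates 1 and 2, which differed from each other by 4.29, while the pairs within Control lay between 3.23 and 5.26 and those within BHB between 8.62 and 10.2. For members whose call or direction changed when this library was left out, the value without it is also given. All 12 microglial and macrophage markers of the list had a row, and their summed level was 3501 to 3626 CPM (counts scaled to library size) in Control, 2490 to 2974 in Medium and 3304 to 3474 in BHB. Csf1r, Itgam and Cd68 averaged at least 39.4 CPM in each group, but Csf1r differed between 249 CPM in Control and 39.4 in Medium, and Trem2 between 266 and 23.1, with 256 and 130.1 for this pair in BHB. Aif1, which codes for the microglial protein Iba-1, averaged 1.47, 0.919 and 1.74 CPM in Control, Medium and BHB. P2ry12, a marker of resting microglia in tissue, was below 1 CPM in every group, and Tmem119 averaged 2.21 CPM in Control and 0.323 in Medium. Adgre1 alone of the list averaged higher in Medium than in Control, at 223, 430 and 361 CPM in Control, Medium and BHB. Ptprc averaged 367, 342 and 313 CPM in the same order. The summed markers of neurons, astrocytes, and fibroblasts and vessels did not exceed 1.11, 0.466 and 0.284 CPM in any library, and those of oligodendrocytes did not exceed 9.01 CPM. The part of the microglial marker level and of the most abundant genes in the results below was not tested.

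Each of these steps can be served by alternative genes. GLUT1 (Slc2a1) is the high-affinity transporter that supplies basal glucose in most cells, whereas GLUT6 (Slc2a6) is found largely on lysosomal membranes in macrophages. Hexokinases trap glucose as glucose-6-phosphate; the products of Hk1 and Hk2 can bind mitochondria, Hk2 is the inducible form of muscle and proliferating cells, and Hk3 is the form of myeloid cells. Phosphofructokinase catalyses the committed step of glycolysis as a tetramer of liver (Pfkl), platelet (Pfkp) and muscle (Pfkm) type subunits. Aldolase then splits fructose-1,6-bisphosphate, with Aldoa the ubiquitous form and Aldoc the form named for brain. In macrophages and microglia, activation by LPS is widely known to go with a greater use of glycolysis. For BV-2 cells, the study reports an extracellular acidification rate that LPS disrupted and BHB brought back to baseline. Its discussion describes glycolysis as suppressed under LPS. Several of the genes examined here are known targets of the hypoxia-inducible factor HIF-1.

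The promoter windows of 5 of the genes are shown because the known binding core of HIF-1 is short and can be read directly from them. The windows of the other genes are only counted below. Each window is RefSeq sequence of build GRCm38.p6, runs 5′ to 3′ on the strand of the gene and holds 250 bases before and 50 bases after the annotated start. Capitals mark ACGTG and GCGTG, or CACGT and CACGC where the match lies on the other strand. The windows are chr4:119108495-119108794 on the plus strand for Slc2a1, chr6:82774405-82774704 on the minus strand for Hk2, chr13:55021336-55021635 on the minus strand for Hk3, chr10:78009758-78010057 on the minus strand for Pfkl and chr13:6648722-6649021 on the minus strand for Pfkp.
Slc2a1: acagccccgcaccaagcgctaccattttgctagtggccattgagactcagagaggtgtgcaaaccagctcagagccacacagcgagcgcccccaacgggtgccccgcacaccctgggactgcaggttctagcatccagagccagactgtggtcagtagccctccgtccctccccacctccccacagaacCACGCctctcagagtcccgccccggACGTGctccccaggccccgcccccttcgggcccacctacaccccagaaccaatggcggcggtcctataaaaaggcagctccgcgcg
Hk2: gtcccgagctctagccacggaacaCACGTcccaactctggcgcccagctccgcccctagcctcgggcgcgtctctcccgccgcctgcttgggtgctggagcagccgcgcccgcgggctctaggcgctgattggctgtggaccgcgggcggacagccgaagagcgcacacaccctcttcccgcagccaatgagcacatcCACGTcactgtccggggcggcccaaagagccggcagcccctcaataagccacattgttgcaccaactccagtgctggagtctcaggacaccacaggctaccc
Hk3: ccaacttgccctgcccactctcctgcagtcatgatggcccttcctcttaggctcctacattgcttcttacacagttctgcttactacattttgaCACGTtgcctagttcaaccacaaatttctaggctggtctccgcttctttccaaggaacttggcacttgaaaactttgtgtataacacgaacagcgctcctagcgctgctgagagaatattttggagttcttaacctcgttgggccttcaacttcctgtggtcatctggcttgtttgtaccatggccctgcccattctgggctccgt
Pfkl: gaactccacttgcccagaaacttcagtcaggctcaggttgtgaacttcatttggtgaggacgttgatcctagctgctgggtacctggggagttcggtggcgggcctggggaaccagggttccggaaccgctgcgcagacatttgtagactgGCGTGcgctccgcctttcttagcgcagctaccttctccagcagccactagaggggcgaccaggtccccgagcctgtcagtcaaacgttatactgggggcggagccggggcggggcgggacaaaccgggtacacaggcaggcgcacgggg
Pfkp: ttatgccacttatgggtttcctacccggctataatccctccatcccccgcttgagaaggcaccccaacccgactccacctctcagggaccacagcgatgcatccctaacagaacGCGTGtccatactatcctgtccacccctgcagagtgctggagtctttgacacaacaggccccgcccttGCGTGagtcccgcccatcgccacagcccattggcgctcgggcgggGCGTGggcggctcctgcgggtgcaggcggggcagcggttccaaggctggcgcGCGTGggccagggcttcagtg

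All 10 listed symbols, Gpi1 included, matched a window, with 14 windows in all because 3 symbols have more than 1 annotated start. ACGTG or GCGTG was found in 11 of the 14 windows, against 43.8% of all 32851 windows in the same RefSeq table. By symbol, 9 of the 10 held a match in at least 1 window, but symbols with several windows had several chances. No share by symbol over all genes was computed. Of the Aldoa windows, 2 overlap and share their match. No match was found in the window of Gpi1, a window of Hk1 and a window of Aldoa, none of which is shown. Slc2a1 held 1 match to each motif, Hk2 held 2 to ACGTG, Hk3 held 1 to ACGTG, Pfkl held 1 to GCGTG and Pfkp held 4 to GCGTG. Among all windows ACGTG was found in 19.6% and GCGTG in 32.4%. The E-box CACGTG, which contains ACGTG, was found in no window of the listed genes and in 7.15% of all windows. A match to kappaB, the motif of NF-κB, was found in 1 of the 14 windows and in 8.46% of all windows. The member windows ranged from 49% to 67.3% in GC content, and GC content was not matched in this comparison. A match is a description of these letters and not of binding, since no binding was measured.

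Pfkl, Aldoc, Slc2a1 and Pfkp had the largest differences between BHB and Medium, and Hk3 and Hk2 had the smallest. Hk3 was below Hk2 with all 9 libraries, but their order turned without Medium replicate 1, Medium replicate 2 or BHB replicate 1. In Medium against Control, Slc2a1, Hk1 and Hk2 were higher, Slc2a6, Pfkl, Pfkp and Aldoc were lower, and Hk3 and Aldoa were not called. That is 7 of 9 genes past an edgeR adjusted p of 0.05, where 72.6% of all genes tested were called, 36.3% higher and 36.3% lower, so the number called is near the background. In BHB against Medium, Slc2a1, Slc2a6, Hk1, Pfkl, Pfkp and Aldoc were higher, none was lower, and Hk2, Hk3 and Aldoa were not called. Here 66.9% of all genes tested were called, 33.2% higher and 33.6% lower, beside 6 of 9 members higher. In BHB against Control, Slc2a1, Hk1, Hk2, Pfkp and Aldoc were higher and Slc2a6 was lower, and Hk3, Pfkl and Aldoa were not called, against a background of 66.7%, with 33.4% higher and 33.3% lower. The median log2 fold change of the 9 genes was -0.49, 0.81 and 0.63 in the 3 comparisons, and the median over all genes tested was within 0.01 of 0 in each. The CPM of the groups did not overlap for 7 of 9 genes in each comparison, where 75.1%, 68% and 75.3% of all genes did not overlap. The 3 comparisons share libraries in pairs, the Medium libraries entering the first and the second with opposite sign, so their values are set side by side and are not independent of each other. Each library pools a whole culture, so that a higher level per cell and a larger share of expressing cells cannot be told apart.

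**Figure D1:**
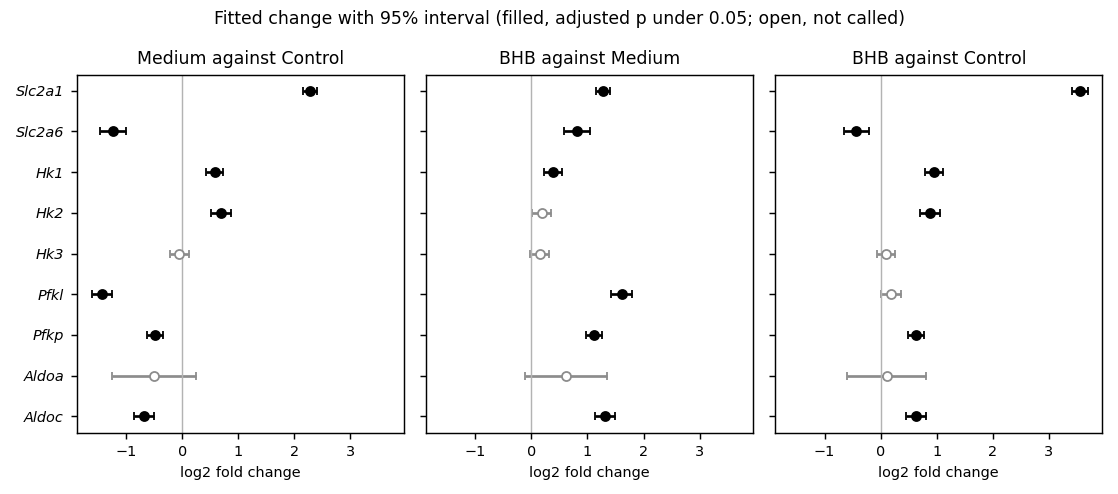
Fitted log2 fold change (horizontal axis) of the 9 genes in Medium against Control, BHB against Medium and BHB against Control. Bars are 95% intervals derived from the edgeR test statistic and not adjusted for the number of genes. Filled points passed an adjusted p of 0.05; Slc2a1 lies farthest to the right in the panels of Medium and BHB against Control, at 2.28 and 3.55, and Pfkl in the panel of BHB against Medium, at 1.61.

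Slc2a1 rose in 2 steps. This gene (ENSMUSG00000028645.11, chr4:119108711-119137983, plus strand, GRCm38) had TMM-normalized levels of 133, 134 and 135 CPM in Control replicates 1 to 3, 662, 655 and 632 in Medium, then 1624, 1471 and 1624 in BHB. The 3 groups were widely separated, and the spread within a group was 15.7 CPM (SD, n = 3) in Medium and 88 CPM in BHB. The level was 4.85-fold higher in Medium than in Control (log2 2.28, SE 0.0611, edgeR adjusted p = 3.91e-13) and rose a further 2.42-fold with BHB (log2 1.28, SE 0.0586, adjusted p = 2.64e-10). Against Control, BHB was 11.7-fold higher (log2 3.55, SE 0.0641, adjusted p = 1.67e-14). The antisense gene Gm12868, which has no row of its own in the table, shares 105 exonic bases with Slc2a1, and the sources used here do not say whether the counting used strand.

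Slc2a6 took the opposite direction in LPS alone. For this gene (ENSMUSG00000036067.12, chr2:27021363-27027998, minus strand) the levels were 67.3, 64.3 and 71.5 CPM in Control, 26.5, 24.6 and 35.0 in Medium, then 48.4, 54.2 and 48.0 in BHB. No group overlapped another, with Medium lowest and BHB between Medium and Control. Medium was 2.36-fold lower than Control (log2 -1.24, SE 0.107, edgeR adjusted p = 9.88e-08), BHB was 1.75-fold higher than Medium (log2 0.81, SE 0.107, adjusted p = 1.19e-05) and BHB remained 1.35-fold lower than Control (log2 -0.43, SE 0.103, adjusted p = 0.00199). Without Medium replicate 3, which had the highest Medium level, the changes were -1.40 with LPS and 0.97 with BHB.

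**Figure D2:**
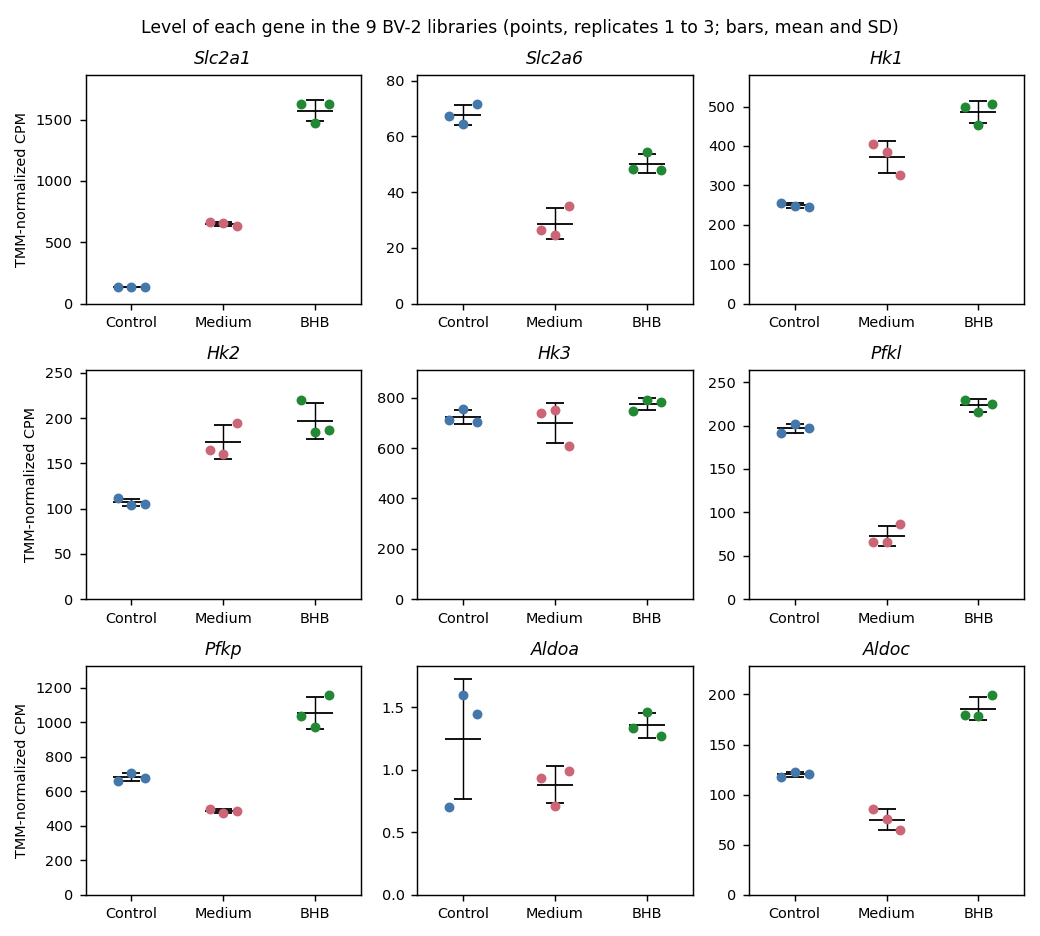
TMM-normalized CPM (vertical axis, starting at 0, scale differing by panel) of each gene in the 9 libraries; points are replicates 1 to 3 and bars are the mean and SD of a group. Slc2a1 climbs from Control to Medium to BHB, Slc2a6, Pfkl, Pfkp and Aldoc are lowest in Medium, and Aldoa stays below 1.6 CPM throughout.

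The transporter pair was next compared per length, since levels of different genes can be set side by side only per kilobase. With the union of annotated exons as the length, Slc2a6 made up 35.5% ± 1.17 (SD, n = 3) of the summed level of the pair in Control, 4.61% ± 0.952 in Medium and 3.38% ± 0.421 in BHB. The sum itself was 59.3 CPM per kb for Control, 194 for Medium and 464 for BHB. With the length of the principal transcript the shares of Slc2a6 were 43.5%, 6.31% and 4.66%. Within each library, where scaling cancels, the log2 ratio of Slc2a6 to Slc2a1 counts was -0.98, -1.06 and -0.92 in Control, -4.64, -4.73 and -4.18 in Medium, then -5.07, -4.76 and -5.08 in BHB. The ratio separated the 3 groups (exact permutation p = 0.00357, the smallest that the 280 partitions of the 9 libraries allow; 0.00714 adjusted over the 6 ratios tested). Slc2a6 thus fell relative to Slc2a1 by 3.53 on the log2 scale with LPS, and BHB differed from Medium by a further -0.45, with no overlap in either case. The nearest libraries of Medium and BHB were at -4.73 and -4.76, and without Medium replicate 3 the difference between these groups was -0.28. For 3 libraries against 3 the smallest two-sided exact p is 0.1, which both pairwise comparisons gave.

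Hk1 and Hk2 rose with LPS while Hk3 kept a high level in all groups. Hk1 (ENSMUSG00000037012.18, chr10:62268855-62379908, minus strand) was at 256, 248 and 244 CPM in Control, 405, 385 and 327 in Medium, then 498, 453 and 505 in BHB, so the groups were ordered without overlap. It was 1.49-fold higher in Medium than in Control (log2 0.58, SE 0.0748, edgeR adjusted p = 6.86e-06) and a further 1.30-fold higher with BHB (log2 0.38, SE 0.0743, adjusted p = 0.000378), and 1.95-fold higher in BHB than in Control. Medium replicate 3 was the lowest Medium library for Hk1, and without it the BHB change was 0.30 and still called. The antisense Hk1os, with no row in the table, shares 157 exonic bases with Hk1.

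Hk2 (ENSMUSG00000000628.10, chr6:82725025-82774454, minus strand), the hexokinase usually described as inducible, was at 111, 104 and 105 CPM in Control, 165, 160.2 and 195 in Medium, then 220.0, 185 and 187 in BHB. The Medium and BHB levels lay above Control and overlapped each other. Hk2 rose 1.62-fold with LPS (log2 0.69, SE 0.0814, edgeR adjusted p = 2.44e-06) and was 1.84-fold higher in BHB than in Control (log2 0.88, SE 0.0814, adjusted p = 3.06e-07). Between BHB and Medium its difference was 0.19 on the log2 scale (95% interval 0.014 to 0.36), which just missed the threshold at an adjusted p of 0.0534. This call was close to the line: 10 of 17 alternative settings called it, with adjusted p from 0.000735 to 0.297. These 17 leave out the test against a 2-fold change, which did not call it. Without Medium replicate 3, which had the highest Medium level, Hk2 was called with a log2 difference of 0.28. The fit with the replicate number as a block also called it, with an adjusted p of 0.0487.

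Hk3 (ENSMUSG00000025877.14, chr13:55005985-55021385, minus strand), the myeloid hexokinase, was at 711, 755 and 704 CPM in Control, 741, 750.3 and 608 in Medium, then 747, 791 and 784 in BHB. The ranges of all 3 groups overlapped, with Medium replicate 3 as the lowest library. The log2 difference was -0.05 in Medium against Control (95% interval -0.21 to 0.11), 0.15 in BHB against Medium (-0.016 to 0.31) and 0.10 in BHB against Control (-0.064 to 0.26), with edgeR adjusted p of 0.582, 0.103 and 0.265. Without Medium replicate 3 the LPS difference turned to 0.05, that of BHB from Medium shrank to 0.05 (adjusted p = 0.329), and the difference of BHB from Control passed the threshold (0.10, adjusted p = 0.0435). With scaling by library size alone, which moves the median of all genes by -0.27 with LPS, Hk3 was called lower in Medium, at -0.32. The plus strand gene Unc5a, which overlaps 34 exonic bases of Hk3, had at most 3 counts in a library.

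Hk3, itself not called in any comparison of the 9 libraries, took a smaller part of the hexokinase total once Hk1 and Hk2 were added to it. Per kilobase of exon it made up 80.6% ± 0.812 of the summed level of Hk1, Hk2 and Hk3 in Control, 72.2% ± 2.03 in Medium and 70.0% ± 1.92 in BHB (SD, n = 3), and it was the most abundant of the 3 per length in every library. The share of Hk1 was 12%, 16.6% and 19.0%, and that of Hk2 was 7.37%, 11.2% and 11%. The summed level was 244 CPM per kb for Control, 263 for Medium and 300.1 for BHB, a ratio of 1.23 between BHB and Control. Shares depended on the length taken: with principal transcripts Hk3 made up 72.7%, 62.8% and 59.8%, and with coding lengths 67.3%, 56.5% and 53.5%. The order of the 3 groups was the same with each length.

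Count ratios within libraries gave the same picture without a length. The log2 ratio of Hk3 to Hk1 was 1.47, 1.60 and 1.53 in Control, 0.87, 0.96 and 0.90 in Medium, then 0.58, 0.80 and 0.63 in BHB, and no library of a group overlapped another group (exact permutation p = 0.00357, adjusted 0.00714). For Hk3 over Hk2 the means were 2.76 ± 0.0912, 2.01 ± 0.321 and 1.98 ± 0.186 (exact permutation p = 0.0286, adjusted 0.0429). Here Control stood above the other groups, and Medium and BHB overlapped. Hk2 over Hk1 averaged -1.22, -1.10 and -1.30, and the test found no separation of the groups (exact permutation p = 0.65). One library carried most of the spread of this last ratio: Medium replicate 3 was at -0.75 while the other Medium libraries were at -1.30 and -1.26, and without it the difference between Medium and Control turned from 0.12 to -0.06.

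**Figure D3:**
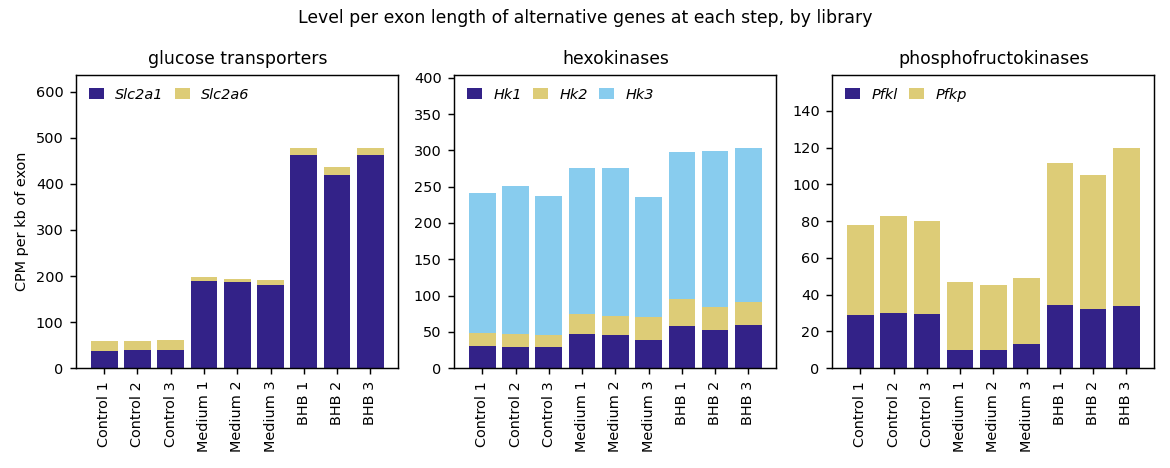
Level per kilobase of annotated exon (vertical axis, CPM per kb, starting at 0, scale differing by panel) of the alternative genes at 3 steps, stacked for each of the 9 libraries. Slc2a1 makes up most of the transporter pair in Medium and BHB, and Hk3 is the tallest hexokinase segment in every library. The phosphofructokinase bars, which hold Pfkl and Pfkp without Pfkm, are shortest in Medium.

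The phosphofructokinase genes fell with LPS and were higher again with BHB, Pfkl by the larger factor in each case. Pfkl (ENSMUSG00000020277.10, chr10:77986947-78010083, minus strand), the liver type subunit, was at 191, 202 and 197 CPM in Control, 66.0, 66.4 and 86.6 in Medium, then 229, 215 and 225 in BHB. The Medium libraries lay far below the rest, and the BHB libraries lay just above the Control ones with no overlap. The level was 2.7-fold lower in Medium than in Control (log2 -1.43, SE 0.0865, edgeR adjusted p = 2.06e-09) and 3.06-fold higher with BHB than in Medium (log2 1.61, SE 0.0867, adjusted p = 1.32e-09). BHB differed from Control by 0.18 (95% interval 0.0031 to 0.36, adjusted p = 0.0677), which was not called in the fit of all 9 libraries. It was called in 2 of 17 alternatives, when these groups were fitted alone (adjusted p = 0.00139) and when Medium replicate 3 was left out (adjusted p = 0.000689). These 17 again leave out the test against a 2-fold change, which did not call it.

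Pfkp (ENSMUSG00000021196.14, chr13:6579768-6648777, minus strand), the platelet type subunit, was at 658, 703 and 679 CPM in Control, 497, 475 and 486 in Medium, then 1037, 973 and 1154 in BHB. The groups did not overlap, and in contrast to Pfkl the BHB level ended well above Control. Pfkp was 1.40-fold lower in Medium than in Control (log2 -0.49, SE 0.0662, edgeR adjusted p = 1.15e-05), 2.17-fold higher with BHB than in Medium (log2 1.12, SE 0.0668, adjusted p = 3.73e-09) and 1.55-fold higher in BHB than in Control (log2 0.63, SE 0.0661, adjusted p = 1.07e-06). The 3′ end of Pfkp shares 748 exonic bases with Pitrm1 on the opposite strand, and Pitrm1 was itself at 272, 200.5 and 248 CPM on average in Control, Medium and BHB, with log2 changes of -0.44, 0.30 and -0.13. Its part in the Pfkp values was not tested.

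The balance between these subunit genes was tightly reproduced among Control libraries and moved in both treated groups. The log2 ratio of Pfkp to Pfkl counts was 1.78, 1.80 and 1.78 in Control, 2.91, 2.84 and 2.49 in Medium, then 2.18, 2.18 and 2.36 in BHB. The groups did not overlap (exact permutation p = 0.00357, adjusted 0.00714), with a difference of 0.96 between Medium and Control and -0.51 between BHB and Medium. BHB stayed 0.45 above Control. Per kilobase of exon Pfkl made up 36.8% ± 0.169 of the pair in Control, 23.1% ± 2.86 in Medium and 29.9% ± 1.53 in BHB (SD, n = 3). The summed level of the pair was 80.2, 47.2 and 112 CPM per kb. The third subunit gene, Pfkm, described below, is not part of these shares and sums, which are therefore not shares of all phosphofructokinase genes. Its exon union is 3340 bases, against 6675 for Pfkl, so per kilobase of exon it lay closer to Pfkl than its CPM show. The exon union of Pfkp is 13401 bases, against 4145 for its principal transcript, and with principal transcripts the Pfkl shares were 24.3%, 14.3% and 19.1%. Medium replicate 3 lay nearest to the BHB libraries on this ratio, as it did for the level of Pfkl.

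The muscle type subunit gene Pfkm, taken from the list of other upper glycolysis genes, was also lower in Medium, at 32.7 CPM against 85.2 in Control (log2 -1.38, SE 0.0586, edgeR adjusted p = 4.89e-11). In BHB it was at 67.6 CPM, higher than Medium (log2 1.05) but still lower than Control (log2 -0.33, adjusted p = 0.000109). Relative to Control, the 3 subunit genes therefore ended in BHB at a higher level for Pfkp, a lower one for Pfkm, and a difference below the threshold for Pfkl.

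**Figure D4:**
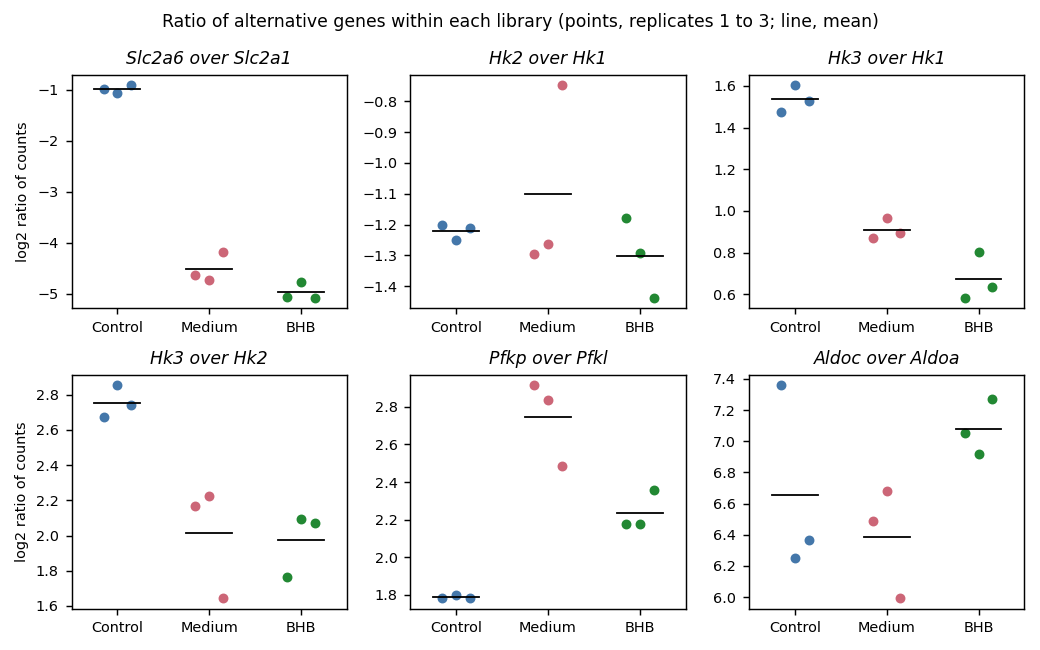
Log2 ratio of counts (vertical axis, not starting at 0, scale differing by panel) of 6 pairs of alternative genes in each of the 9 libraries; points are replicates 1 to 3 and lines are group means. Slc2a6 over Slc2a1, Hk3 over Hk1 and Pfkp over Pfkl separate all 3 groups, and Medium replicate 3 stands apart in Hk2 over Hk1.

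Of the aldolase rows examined, Aldoc held nearly all the counts, within the limit on the Aldoa row given below. Aldoc (ENSMUSG00000017390.15, chr11:78322968-78327781, plus strand) was at 118, 122 and 121 CPM in Control, 85.3, 75.3 and 64.4 in Medium, then 179.6, 178.6 and 199 in BHB. The groups were separate, with Medium lowest and BHB highest. Aldoc was 1.60-fold lower in Medium than in Control (log2 -0.68, SE 0.0832, edgeR adjusted p = 3.79e-06), 2.47-fold higher with BHB than in Medium (log2 1.31, SE 0.0834, adjusted p = 7.09e-09) and 1.54-fold higher in BHB than in Control (log2 0.63, SE 0.0815, adjusted p = 9.50e-06).

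The row named Aldoa held only 18, 50 and 40 counts in Control, 27, 17 and 26 in Medium, then 38, 45 and 35 in BHB, or between 0.698 and 1.59 CPM. The annotation gives the symbol to 2 neighbouring genes on the minus strand of chromosome 7, ENSMUSG00000030695.16 at chr7:126795234-126800751 and ENSMUSG00000114515.2 at chr7:126800790-126809108, and the table does not say which of them the row counts. These values are therefore values of that row and not a measure of the ubiquitous aldolase. None of its differences was called: -0.51 in Medium against Control (95% interval -1.25 to 0.24), 0.62 in BHB against Medium (-0.12 to 1.35) and 0.11 in BHB against Control (-0.59 to 0.81), with edgeR adjusted p of 0.203, 0.128 and 0.784. The BHB libraries all lay above the Medium ones, but at this depth the intervals still allow a change in either direction. The log2 ratio of Aldoc to this row averaged 6.66 ± 0.609, 6.39 ± 0.354 and 7.08 ± 0.179 in Control, Medium and BHB (exact permutation p = 0.214, adjusted 0.257). It was widest in Control, where replicate 1 was at 7.36 and the others at 6.25 and 6.37, and without that library the exact permutation p was 0.0393.

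Neighbouring steps were then described from lists of related genes by their counts and medians, to be read beside the shares of all genes tested given above (72.6% called with LPS and 66.9% in BHB against Medium). Of the other glucose transporters, 4 of 12 listed genes were tested, with 2 lower and none higher in Medium against Control and 3 higher and none lower in BHB against Medium, numbers too small to set against those shares. Slc2a3, which codes for the high-affinity transporter of neurons and leukocytes, was at 7.58, 7.91 and 25.3 CPM in Control, Medium and BHB, a rise of 1.67 with BHB (log2, SE 0.125, edgeR adjusted p = 3.86e-08), where Slc2a1 had risen at both steps. Slc2a8 fell by 1.18 with LPS, at 9.56 CPM in Medium against 21.6 in Control, and was at 21.7 in BHB. Slc2a9, which codes for a urate transporter, was lower by 0.81 in Medium (log2 -0.81) and was not called between BHB and Medium (log2 -0.04). Slc2a4, the insulin-responsive transporter gene, was among the 3 called higher in BHB against Medium. It stayed below 1 CPM in every group, at 0.145 CPM in Medium and 0.865 in BHB.

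Among 11 other tested genes of upper glycolysis and sugar entry, 1 was higher and 5 lower in Medium against Control, with a median of -0.17, and 7 were higher and 1 lower in BHB against Medium, with a median of 0.45. The share called with LPS was smaller than the background of 72.6% (36.3% in each direction), and the list had more higher than lower calls in BHB against Medium, where the background was 33.2% and 33.6%. Galk1, which phosphorylates galactose, was at 87.8, 32.9 and 94.0 CPM in Control, Medium and BHB (log2 -1.42 with LPS and 1.51 with BHB). Pgm1, which links glucose-1-phosphate of glycogen to glucose-6-phosphate, was at 157, 127 and 306 CPM, with log2 changes of -0.31 and 1.27.

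The enzymes of fructose-2,6-bisphosphate, the strongest known activator of phosphofructokinase, did not share a direction. With LPS 1 of the 5 genes was higher and 2 were lower, and BHB against Medium gave 2 in each direction, beside backgrounds of 72.6% and 66.9% called. Pfkfb3, whose product strongly favours synthesis of the activator, was at 51.4 CPM for Control, 122.5 for Medium and 69.4 for BHB, rising by 1.25 with LPS (log2, edgeR adjusted p = 2.07e-09) and lower by 0.82 in BHB than in Medium (log2 -0.82, adjusted p = 2.75e-07). In Medium it was thus high where Pfkl, Pfkp and Pfkm were low. Tigar, whose product degrades the activator, was at 49.7, 30.7 and 23.9 CPM and was lower in each comparison (log2 -0.69, -0.36 and -1.05). Pfkfb2 was at 22, 9.29 and 12.6 CPM, and Pfkfb4 was at 32.2, 31.0 and 36.3 CPM with a change of 0.22 in BHB against Medium.

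For lower glycolysis and lactate, 9 of 14 listed genes were tested, while Gapdh, Ldhb and Pklr had no row. In Medium against Control 8 were lower and none higher, with a median of -0.49, where 36.3% of all genes were lower. In BHB against Medium all 9 were higher, with a median of 1.18, where 33.2% of all genes were higher. These medians stand beside -0.49 and 0.81 for the 9 genes described here. Ldha, which codes for the lactate dehydrogenase subunit of glycolytic tissues, was at 1481, 1056 and 2690 CPM (log2 -0.49 and 1.35). Of 8 listed pentose phosphate genes 6 were tested, while G6pdx and Pgd had no row. Among these 6, LPS gave 1 higher and 4 lower, and BHB against Medium gave 4 higher and none lower. The backgrounds were the same, 72.6% and 66.9%. Tkt, the transketolase gene, was at 432, 261 and 493 CPM.

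Of 18 tested regulators of glycolytic genes and glucose uptake, LPS gave 6 higher and 9 lower, and BHB against Medium gave 9 higher and 4 lower, against 36.3% and 36.3% of all genes in the former comparison and 33.2% and 33.6% in the latter. Egln3 and Egln1, which code for prolyl hydroxylases that mark HIF-1α for degradation and are themselves known HIF-1 targets, had log2 changes of 2.71 and 2.28 in BHB against Medium. Egln3 was at 68.6, 55.1 and 361 CPM in Control, Medium and BHB, and Egln1 at 62.7, 28.2 and 137. Akt1, a kinase of insulin and growth factor signalling, was at 370.5, 187 and 278 CPM. Mtor was at 118, 82.4 and 126 CPM, with log2 changes of -0.52 and 0.61.

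The genes whose pattern over the 9 libraries was closest to each member were also listed, by Pearson's r of log2 CPM among 8480 genes compared. These r values describe patterns that mainly separate the 3 groups, and libraries of a group share their treatment. The closest to Slc2a1 was Nos2, the inducible nitric oxide synthase gene (r = 0.999), at 51.4, 684 and 3806 CPM in Control, Medium and BHB, followed by Stab1 and Cpd. For Pfkp it was Ndrg1, a known hypoxia-responsive gene (r = 0.996), at 547, 292 and 1421 CPM, followed by Akap6 and Ctbs. For Pfkl the closest were Naa35, Ptges3 and Clec5a (r from 0.995 to 0.997). For Slc2a6 they were Retsat, Polr3e and Trim37, for Hk1 Ppme1, Hsph1 and Atp6v0a1, for Hk2 Smurf1, Kdm4a and Nphp4, and for Aldoc Mllt11, Ddb1 and Vdac1. Slc2a1, Slc2a6 and Pfkl each had about 300 genes with r above 0.95, at 305, 306 and 295, whereas Hk3 and the Aldoa row had 0. The highest r was 0.937 for Hk3, with Uchl5, and 0.815 for the Aldoa row, with Rhd.

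Aldoc was placed with the other genes whose symbol names a single annotated gene, by level per kilobase of exon union. In BHB the order was Slc2a1 at 449 CPM per kb, Hk3 at 210.2, Pfkp at 78.7, Aldoc at 56.9, Hk1 at 56.9, Pfkl at 33.4, Hk2 at 33 and Slc2a6 at 15.6. Aldoc and Hk1 overlapped there, as did Pfkl and Hk2, and neither pair kept its order in every BHB library. In Control the order was Hk3 at 196 CPM per kb, Pfkp at 50.8, Slc2a1 at 38.2, Aldoc at 36.8, Pfkl at 29.5, Hk1 at 29.3, Slc2a6 at 21.1 and Hk2 at 17.9, and of these neighbours Pfkl and Hk1 overlapped. In Medium the order was Hk3 at 190.0, Slc2a1 at 185, Hk1 at 43.6, Pfkp at 36.3, Hk2 at 29.0, Aldoc at 23, Pfkl at 10.9 and Slc2a6 at 8.93. Hk3 and Slc2a1 overlapped and changed places between Medium libraries, while Pfkl and Slc2a6 overlapped in range although Pfkl was the higher in each of the 3 libraries. The order depended on the length: with principal transcripts Pfkp averaged 254 and Hk3 240.4 CPM per kb in BHB, with overlapping values and Pfkp the higher in 2 of the 3 libraries, and Hk1 was at 126. With coding lengths Pfkp lay above Hk3 in Control, at 289 against 261 CPM per kb. In Medium these lengths put Slc2a1 above Hk3, at 440 against 253. The values did not overlap in either case.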

How the data were processed

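The authors sequenced mRNA of BV-2 cells and deposited raw counts per gene symbol in 1 table, with 3 libraries each for Control, Medium and BHB. In their processing notes the submitters list Trimmomatic, FastQC 0.11.5, StringTie and HISAT2 with build GRCm38; the study's methods name other trimming and alignment tools and GENCODE M21. The counting step and its use of strand are not given in the sources used here. Of the symbols, 99.2% are M21 gene names.

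Counts were filtered with filterByExpr, scaled by TMM and tested with edgeR 4.0.16 (R 4.3.3; glmQLFit and glmQLFTest) in a single fit of 9 libraries, with Benjamini-Hochberg adjustment over 10413 genes and a threshold of 0.05. CPM are TMM-normalized, except for the levels of the cell type markers, single and summed, which use library sizes. Levels per kb used M21 exon unions. Log2 count ratios (pseudocount 0.5) were tested by exact permutation over 280 partitions, two-sided, with adjustment over 6 ratios. Similar genes were ranked with a prior count of 2 among genes whose log2 CPM averaged 3 or more. From each list, up to 4 genes with the smallest p in BHB against Medium were named. One such gene is not reported here. The precision of a value is limited by 3 libraries per group rather than by depth, except for Aldoa. Alternatives included DESeq2 1.42.0, limma-voom (limma 3.58.1), other scalings and filters, a 2-fold threshold, a replicate block and each library left out; lengths of principal transcripts and coding sequences were added after seeing the data. The code was tested on simulated data. The members and lists were chosen with earlier results of these data known.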

Additional observations from a re-analysis of the deposited data

How the results depend on the processing

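Of 486 combinations of a member's fold change with an alternative setting, 455 kept their direction and side of the threshold, 15 gained a call, 12 lost it and 4 changed sign. All 12 losses came from the test against a 2-fold change, which also left 1163 genes called in Medium against Control (526 higher, 637 lower), 632 in BHB against Medium (397 higher, 235 lower) and 670 in BHB against Control (387 higher, 283 lower). With library sizes alone, calls split 2276 higher to 5375 lower, 4296 to 2601 and 2529 to 4414 in the 3 comparisons, beside 3777 to 3784, 3461 to 3503 and 3478 to 3470 with TMM, and the median of all genes moved to -0.27, 0.13 and -0.14. Under that scaling Hk3 was called in Medium against Control (-0.32) and in BHB against Medium (0.28), and its BHB against Control difference turned to -0.042, as did that of the Aldoa row, to -0.028. With each library left out in turn, the Hk3 difference of Medium from Control ran from -0.099 to 0.045, positive only without Medium replicate 3, and the Aldoa row's difference of BHB from Control from -0.16 to 0.33, negative only without Control replicate 1. The cause was not tested.

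Leaving out each library in turn gave 7102 to 7923, 6388 to 7382 and 6367 to 7605 calls in the 3 comparisons, and 4 of the 6 ratios were under an exact p of 0.05 each time, as with all 9 libraries, except that Aldoc over Aldoa made 5 without Control replicate 1. Aldoc over Aldoa in Medium against Control then ran from -0.48 to 0.078, turning without Control replicate 1, Hk2 over Hk1 in Medium against Control from -0.059 to 0.22, turning without Medium replicate 3, and Hk3 over Hk2 in BHB against Medium from -0.22 to 0.072, turning without Medium replicate 1, Medium replicate 2 or BHB replicate 1.

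Same-numbered libraries did not deviate together (9 pairs, correlations from -0.071 to 0.0632), so the numbers were not taken to pair the samples. With the replicate block, 7488, 6884 and 6864 genes were called, against 7561, 6964 and 6948 without it, and Hk2 in BHB against Medium passed the threshold (0.19, adjusted p = 0.0487); no other member's call changed.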
